A study of Mus musculus with 8 samples.

Results

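The Hox genes of the mouse were followed in endothelial cells of lung tumors. They were taken by name, as every gene symbol made of Hox, a cluster letter (a, b, c or d) and a paralog number, which gave 39 of the 33641 symbols: 11 Hoxa, 10 Hoxb, 9 Hoxc and 9 Hoxd genes. RNA-seq was performed on CD45-CD31+ cells sorted by FACS from microdissected tumors at day 21 after LLC cells (Lewis lung carcinoma, a tumor line of mouse lung) had been injected into the left lobe of the lung. Libraries came from 4 control mice (C1 to C4) and 4 endFoxf1+/- mice (H1 to H4), which the methods give as 6 to 8 weeks old at injection and on a C57Bl/6 background. In endFoxf1+/- mice (Pdgfb-iCreER; Foxf1 fl/+), a Cre recombinase driven by the Pdgfb promoter and activated by tamoxifen removes 1 Foxf1 allele in endothelial cells, and the other allele remains. As controls the study names single transgenic littermates, with the floxed Foxf1 allele or the Cre, and its methods for the tumor model name C57Bl/6 wild-type mice. Both groups were given LLC cells and tamoxifen, and no library of endothelium without a tumor was analysed here. The labels do not say which of these each control library was, and they tie no library to a litter, so p-values measure the spread between these libraries.

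Hox genes encode homeodomain transcription factors that lie side by side in clusters, in an order that follows their use along the body axis: low paralog numbers in anterior and high numbers in posterior territories. Many cells keep this code into adult life, so that Hox transcripts differ between endothelial cells, fibroblasts and other stromal cells of different organs. In the lung, Hoxa5 and Hoxb5 are known for their roles in airway and mesenchymal development.

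The clusters span chr6:52155590-52260880 (Hoxa, 105291 bp), chr11:96194316-96368256 (Hoxb, 173941 bp), chr15:102921103-103036852 (Hoxc, 115750 bp) and chr2:74668310-74765142 (Hoxd, 96833 bp) on GRCm38, by the GENCODE vM21 annotation, which held all 39 genes. The homeobox is the 180-base stretch of coding sequence for the DNA-binding homeodomain. Below are the homeoboxes of the 5′ to 3′ coding strand of Hoxa5, the gene with the highest transcript level, and of Hoxa2 and Hoxb2, expressed paralogs of different clusters whose homeodomains are identical. Capitals mark codons 42 to 58, the recognition helix that lies in the major groove of DNA.
Hoxa5, chr6:52202632-52202811, minus strand: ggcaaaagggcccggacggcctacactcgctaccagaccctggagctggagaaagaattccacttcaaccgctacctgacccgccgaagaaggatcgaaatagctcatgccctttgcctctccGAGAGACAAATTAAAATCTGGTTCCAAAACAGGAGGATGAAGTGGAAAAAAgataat
Hoxa2, chr6:52163411-52163590, minus strand: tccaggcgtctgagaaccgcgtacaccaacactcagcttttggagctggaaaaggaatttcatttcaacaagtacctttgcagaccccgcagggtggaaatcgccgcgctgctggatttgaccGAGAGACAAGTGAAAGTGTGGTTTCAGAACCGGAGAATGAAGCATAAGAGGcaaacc
Hoxb2, chr11:96352985-96353164, plus strand: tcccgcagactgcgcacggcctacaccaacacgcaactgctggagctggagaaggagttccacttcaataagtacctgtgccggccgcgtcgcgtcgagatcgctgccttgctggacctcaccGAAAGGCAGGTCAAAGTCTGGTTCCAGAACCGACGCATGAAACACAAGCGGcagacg
Hoxa2 and Hoxb2 encode the same amino acid at 60 of 60 homeodomain positions from homeoboxes that share 74.4% of their bases. Hoxa5 and Hoxb5 likewise share 60 of 60 positions, with 83.9% of bases, and Hoxa3 and Hoxb3 share 59 of 60 positions and 93.9% of bases. Along the whole transcripts, the longest identical run was 33 bases between Hoxa3 and Hoxb3 and 47 bases between Hoxa7 and Hoxb4, so reads within such a run could come from either gene.

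Libraries differed in their endothelial content. The geometric mean of 20 endothelial markers (Pecam1, Cdh5, Kdr and others) ranged over the control libraries from 83.3% to 108% of their mean, and stood at 101.2% in H1 and 106.1% in H2, but at 56.9% in H4 and 5.33% in H3. None of these markers was at 0 in any library, but all 20 were below every control library in H3. Foxf1, the targeted gene, had a TPM between 213 and 331 in the control libraries and of 177, 203, 14.04 and 105 in H1 to H4. The groups did not overlap (log2 difference of -1.68, two-sided exact permutation p = 0.0286, the smallest that this test can give for 4 libraries against 4). Without H3 the log2 difference was -0.83 (exact permutation p = 0.0571). The label of H3 could not be checked by Foxf1 alone, since its Foxf1 (4.99% of the control mean) was as low as its other endothelial transcripts. Differences of the expressed Hox genes are therefore given also without H3 and without H3 and H4. In bulk samples, fewer cells of a type and less RNA per cell cannot be told apart.

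Libraries of control tumor endothelium held transcripts of the anterior part of the Hoxa and Hoxb clusters. They also held markers of other cells: 12 epithelial markers summed to 7175 to 32994 TPM, beside 12463 to 16115 for the 20 endothelial markers. Which cells carried the Hox transcripts was not tested. A gene was called expressed at a TPM (a length-corrected transcript level on a common total per library) of at least 1 in all 4 control libraries, which 10 of the 39 Hox genes were: Hoxa2, Hoxa3, Hoxa4, Hoxa5 and Hoxa7, Hoxb2, Hoxb3, Hoxb4 and Hoxb5, and Hoxc9. No Hoxd gene was among them. A further 12 genes were listed at 0 in all 8 libraries: Hoxa11, Hoxa13, Hoxb8, Hoxb13, Hoxc5, Hoxc10, Hoxc11, Hoxc12, Hoxc13, Hoxd1, Hoxd12 and Hoxd13. All members with paralog number 12 or 13 were in this group. The remaining 17 genes lay in between: 8 of them (Hoxa9, Hoxb6, Hoxb9, Hoxc4, Hoxc6, Hoxc8, Hoxd4 and Hoxd11) stayed under a TPM of 1 in every library, and 9 reached it in at least 1 library.

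**Figure D1:**
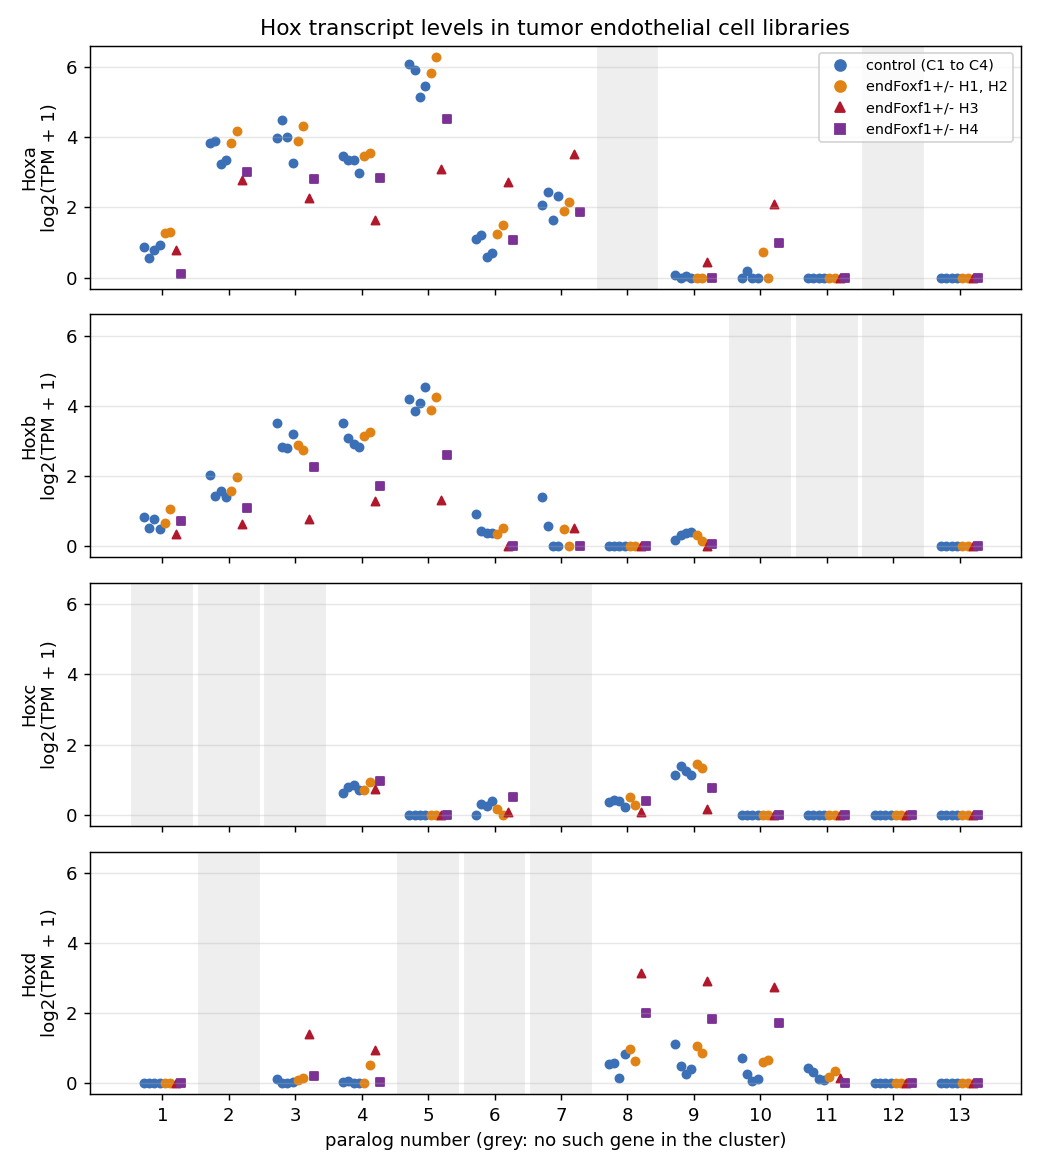
Level of each of the 39 Hox genes, as log2(TPM + 1), against its paralog number, with 1 panel per cluster and 1 point per library (circles in blue for the 4 control libraries and in orange for H1 and H2, triangle for H3, square for H4). Points peak at paralog 5 of Hoxa and Hoxb in the control libraries, while H3 and H4 sit below them there and above them at Hoxd8, Hoxd9 and Hoxd10.

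Paralog group 5 carried the largest share of Hox transcripts in the control libraries. Its 3 genes made up 51.8% of the summed Hox TPM of the control means, ahead of group 3 with 17.3%, group 4 with 13.04% and group 2 with 10.1%. Groups 1 to 5 together held 92.7% to 94.7% of the Hox TPM in the control libraries, groups 6 to 8 between 3.37% and 5.36%, and groups 9 to 13 between 1.73% and 2.23%. By cluster, Hoxa genes held 68.9% ± 5.53 (SD, n = 4) and Hoxb genes 28.2% ± 5.50, against 1.93% ± 0.514 for Hoxc and 1.05% ± 0.550 for Hoxd.

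Hoxa5 had the highest level of the family in every control library. Its TPM was 66.6, 59.9, 34.5 and 42.7 in C1 to C4 and 56.0, 77.4, 7.60 and 21.9 in H1 to H4. H1 lay within the control range and H2 above it, H4 and H3 below, and the groups overlapped. Hoxb5, its paralog in the Hoxb cluster, had a TPM of 17.2, 13.4, 16.1 and 22.2 in C1 to C4 and of 13.8, 17.9, 1.51 and 5.09 in H1 to H4. H1 and H2 were within the control range and H3 and H4 below it. In control cells Hoxa5 was at 50.9 ± 14.9 TPM and Hoxb5 at 17.2 ± 3.67 (mean ± SD, n = 4), and the ranges did not overlap.

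Group 3 and group 4 genes, which pattern hindbrain, neck and upper trunk structures in the embryo, came next. Hoxa3 was at 14.8, 21.4, 15.2 and 8.71 TPM in C1 to C4 and at 13.8, 19.0, 3.82 and 6.05 in H1 to H4. Hoxb3 was at 10.4, 6.09, 5.95 and 8.16 TPM in the control libraries and at 6.39, 5.64, 0.709 and 3.79 in the endFoxf1+/- libraries. For both genes H3 and H4 were below every control library, and for Hoxb3 H2 was slightly below as well. Hoxa4 was at 10.02, 9.17, 9.26 and 6.96 TPM in C1 to C4, and at 10.1, 10.7, 2.09 and 6.15 in H1 to H4. Hoxb4 was at 10.4, 7.44, 6.53 and 6.16 TPM in C1 to C4, and at 7.76, 8.53, 1.42 and 2.28 in H1 to H4. Again H1 and H2 reached or passed the control values, H3 and H4 did not, and the groups overlapped.

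Group 2 differed between the clusters. Hoxa2 was at 13.2, 13.98, 8.44 and 9.22 TPM in C1 to C4 and at 13.4, 17.3, 5.90 and 7.11 in H1 to H4. Hoxb2, whose homeodomain is identical (sequences above), was at 3.07, 1.68, 1.95 and 1.62 TPM in C1 to C4 and at 1.99, 2.89, 0.562 and 1.12 in H1 to H4. Both were lowest in H3 and next lowest in H4. Among group 1 genes, which mark the most anterior Hox territory of the embryo, Hoxb1 stayed between 0.416 and 0.776 TPM in the control libraries and Hoxd1 was listed at 0.

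Of the genes past group 5, Hoxa7 and Hoxc9 were expressed in all control libraries. Hoxa7 was at 3.23, 4.46, 2.15 and 4.05 TPM in C1 to C4 and at 2.76, 3.46, 10.4 and 2.66 in H1 to H4, and H3 was the only library outside the control range. Hoxc9, the one expressed gene of its cluster, was at 1.19, 1.60, 1.36 and 1.20 TPM in C1 to C4 and at 1.74, 1.52, 0.118 and 0.679 in H1 to H4. H3 and H4 were below all control libraries.

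In the order of control means, Hoxa5 was followed by Hoxb5, Hoxa3 (15.05 ± 5.19 TPM, SD, n = 4), Hoxa2 (11.2 ± 2.79), Hoxa4 (8.85 ± 1.32), Hoxb3 (7.66 ± 2.11), Hoxb4 (7.62 ± 1.90), Hoxa7 (3.47 ± 1.02), Hoxb2 (2.08 ± 0.673) and Hoxc9 (1.34 ± 0.191). Among neighbours in this order, the control ranges were separate only between Hoxa5 and Hoxb5, between Hoxb4 and Hoxa7, and between Hoxb2 and Hoxc9. Hoxa7 was above Hoxb2 in 4 of 4 control libraries although the ranges overlapped. From Hoxb5 to Hoxb4 no neighbouring pair was ordered beyond its spread. The library kit, Nextera XT, does not mark strand, and antisense transcripts are annotated over 52.9% of the exonic bases of Hoxb3, 27.3% of Hoxb2, 25.4% of Hoxa3, 20.4% of Hoxa7, 16.0% of Hoxa4 and 3.59% of Hoxb5. Reads of these genes and of their antisense partners cannot be told apart. No annotated gene overlaps the exons of Hoxa5.

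The comparison of endFoxf1+/- with control libraries asks whether endothelial loss of a Foxf1 allele goes with a different Hox profile. Of the 39 genes, 12 passed the filter on low values (4 or more of the 8 libraries at a TPM of 1 or above): the 10 expressed genes, Hoxa6 and Hoxd9. On the log2(TPM + 1) scale, which understates changes of low genes, 9 of the 12 were lower in endFoxf1+/- libraries and 3 (Hoxa6, Hoxa7 and Hoxd9) higher. Their median difference was -0.36, against -0.17 for all 14964 genes tested, of which 68.0% were lower. None of the 12 had an adjusted p under 0.05 in limma, as was the case for 0% of all genes tested. At an unadjusted p under 0.05, 0 Hox genes were lower (2.77% of all genes) and 1, Hoxd9, was higher (2.82% of all genes). No Hox gene had groups that did not overlap, against 2.31% of all genes lower and 2.73% higher without overlap, and none of the 39 reached an exact permutation p under 0.05.

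The 2 anterior genes with the largest differences were Hoxb5 and Hoxb3. Hoxb5 was at 17.2 ± 3.67 TPM in control and 9.57 ± 7.58 in endFoxf1+/- cells (SD, n = 4 each), a log2 difference of -1.15 ± 0.58 (SE, limma, adjusted p = 0.790). Hoxb3 was at 7.66 ± 2.11 and 4.13 ± 2.53 TPM, a log2 difference of -0.92 ± 0.46 (limma, adjusted p = 0.790). Hoxa5 was at 50.9 ± 14.9 and 40.7 ± 31.8 TPM, a log2 difference of -0.72 ± 0.62 (limma, adjusted p = 0.797). None of these differences passed the test, and the groups overlapped, with the widest spread in endFoxf1+/- cells through H3 and H4. The other expressed genes differed by -0.74 (Hoxb4), -0.62 (Hoxa3), -0.42 (Hoxa4), -0.30 (Hoxc9), -0.28 (Hoxb2), -0.12 (Hoxa2) and 0.24 (Hoxa7) on the log2 scale.

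**Figure D2:**
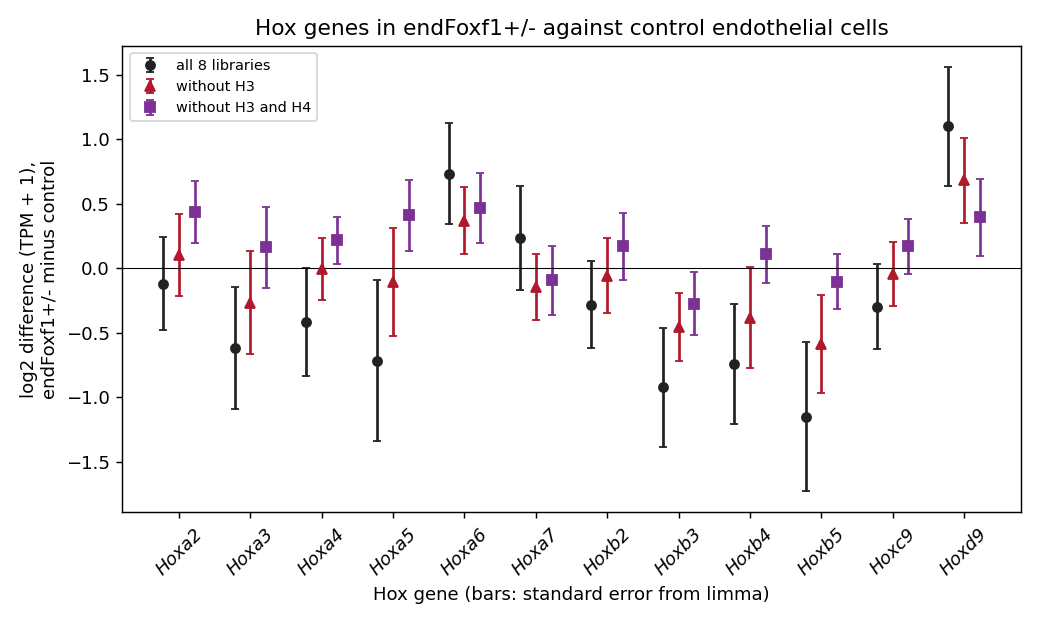
Log2 difference in TPM + 1, endFoxf1+/- minus control, for the 12 Hox genes tested, with the standard error from limma, over all 8 libraries (circles), without H3 (triangles) and without H3 and H4 (squares). Over all libraries 9 genes lie below 0, Hoxb5 lowest at -1.15, and without H3 and H4 all but Hoxa7, Hoxb3 and Hoxb5 lie above it.

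The size and direction of these differences rested on H3 and H4. Without H3, the median of the 10 expressed genes went from -0.52 to -0.13 (all genes tested, 0.01), the log2 difference of Hoxb5 to -0.59, of Hoxb3 to -0.46 and of Hoxa5 to -0.11, and Hoxa2 turned to 0.10 and Hoxa7 to -0.15. Without H3 and H4 the median was 0.17 (all genes, 0.14), 3 of the 10 genes were lower (Hoxa7, Hoxb3 and Hoxb5), and Hoxa5 stood at 0.41. In H1 and H2 both, 5 of the 10 genes (Hoxa3, Hoxa7, Hoxb2, Hoxb4 and Hoxb5) lay within the control range. Levels relative to the mean of the 20 endothelial markers keep these differences and add the same value to every gene, 1.20 over all libraries and 0.23 without H3, through the low markers of H3 and H4. On that scale the 10 expressed genes ran from 0.05 for Hoxb5 to 1.44 for Hoxa7, and all but Hoxa7 lay under the 1.20 of a gene at the same level in every library.

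Library H3 had another Hox profile. In it 9 of the 10 expressed genes, all but Hoxa7, were below every control library and at their lowest of the 8 libraries. Hoxb5 stood at 8.78% of its control mean, Hoxc9 at 8.82%, Hoxb3 at 9.25%, Hoxa5 at 14.9%, Hoxb4 at 18.6% and Hoxa2 at 52.6%, while the endothelial markers stood at 5.33%. The same 9 genes were below every control library in H4, from 29.5% (Hoxb5) to 69.5% (Hoxa4) of the control mean, where the endothelial markers stood at 56.9%. These are unscaled TPM. The median ratio factor, by which TPM are divided, was 0.590 in H3 and 0.910 in H4, against 1.01 to 1.18 in the control libraries. Scaling by it would bring Hoxa2 in H3 and Hoxa4 in H4 inside the control range. The ranking of the 39 genes in H3 had a Spearman correlation with the control means of 0.752, in H4 of 0.865, and in the other 6 libraries of 0.928 to 0.972. This is a description over 39 genes, many tied at 0, with each control library left out of the mean it is compared with.

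Of the 16 genes of paralog groups 9 to 13, 9 were listed at 0 in all libraries, 4 (Hoxa9, Hoxa10, Hoxd9 and Hoxd10) were highest in H3, 2 (Hoxb9 and Hoxc9) were lowest in H3, and Hoxd11 was neither. The genes described next were chosen after their values were seen, except for Hoxd9. Hoxd9, a gene of posterior trunk and limb patterning, was at 1.16, 0.418, 0.197 and 0.318 TPM in C1 to C4 and at 1.08, 0.826, 6.62 and 2.54 in H1 to H4. It passed the filter with 1 control and 3 endFoxf1+/- libraries at a TPM of at least 1, a passage that favours a difference in this direction. The log2 difference was 1.10 ± 0.46 (SE, limma, unadjusted p = 0.0388, adjusted p = 0.790; exact permutation p = 0.0857), 0.68 without H3 and 0.39 without H3 and H4. With all libraries, the log2 difference of Hoxd9 was 1.97 with a pseudocount of 0.1 and 0.44 with a pseudocount of 5. H1 and H2 were inside the control range, so the groups overlapped.

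Hoxd8 and Hoxd10, which flank Hoxd9 on chromosome 2, were likewise highest in H3 and next in H4. Hoxd8 was at 0.463, 0.492, 0.105 and 0.779 TPM in C1 to C4, and at 0.962, 0.557, 7.76 and 3.02 in H1 to H4. Hoxd10 was at 0.658, 0.204, 0.0401 and 0.0844 TPM in C1 to C4, and at 0.535, 0.581, 5.74 and 2.31 in H1 to H4. For both genes H3 and H4 exceeded every control library, at 16.9 and 6.57 times the control mean for Hoxd8 and at 23.3 and 9.36 times for Hoxd10, and the groups overlapped through H1 or H2. The next gene, Hoxd11, was under 0.4 TPM in all libraries and had no such order.

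In the Hoxa cluster, Hoxa6 was at 1.14, 1.34, 0.506 and 0.622 TPM in C1 to C4 and at 1.38, 1.81, 5.61 and 1.11 in H1 to H4. Hoxa10 was listed at 0 in 3 of 4 control libraries and at 0.134 TPM in the other, and at 0.670, 0, 3.32 and 0.983 TPM in H1 to H4. H3 held the highest value of both. Of the 17 genes between the expressed and those listed at 0, 8 were highest in H3: Hoxa6, Hoxa9, Hoxa10, Hoxd3, Hoxd4, Hoxd8, Hoxd9 and Hoxd10. Of the exonic bases of Hoxd3 and Hoxd4, 62.3% and 52.3% are shared with other annotated genes of the same strand, each other among them, so that reads there could not be assigned to one gene. Hoxb7 (0.426 TPM) and the Hoxc genes of this class were not raised in H3: Hoxc4 was at 0.655 TPM against 0.523 to 0.781 in the control libraries, and Hoxc8 at 0.0534 against 0.155 to 0.342.

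The shares of the summed Hox TPM differed in the same libraries. The sum over the 39 genes was 159.2, 145.4, 105.8 and 115.9 in C1 to C4 and 136.6, 173.0, 68.4 and 69.4 in H1 to H4. With median ratio scaling, which raises all values of H3, the sum was 116.0 in H3 and 76.3 in H4 against 104.5 to 136.3 in the control libraries, so that only H4 was below them. Of it, Hoxd genes held 1.74%, 0.967%, 0.401% and 1.10% in C1 to C4 and 2.03%, 1.61%, 33.3% and 11.6% in H1 to H4. Hoxb genes held 7.18% in H3 and 18.7% in H4, against 20.7% to 33.8% in the control libraries, and groups 1 to 5 held 40.6% and 79.7%, against 92.7% to 94.7%. In H1 and H2 groups 1 to 5 held 92.2% and 94.4%, H1 being slightly below the control libraries and above them in its Hoxd share. The mean Hoxd share of endFoxf1+/- libraries thus rested on H3: it was 12.1% ± 14.8 (SD, n = 4) with it and 5.08% ± 5.65 (n = 3) without.

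**Figure D3:**
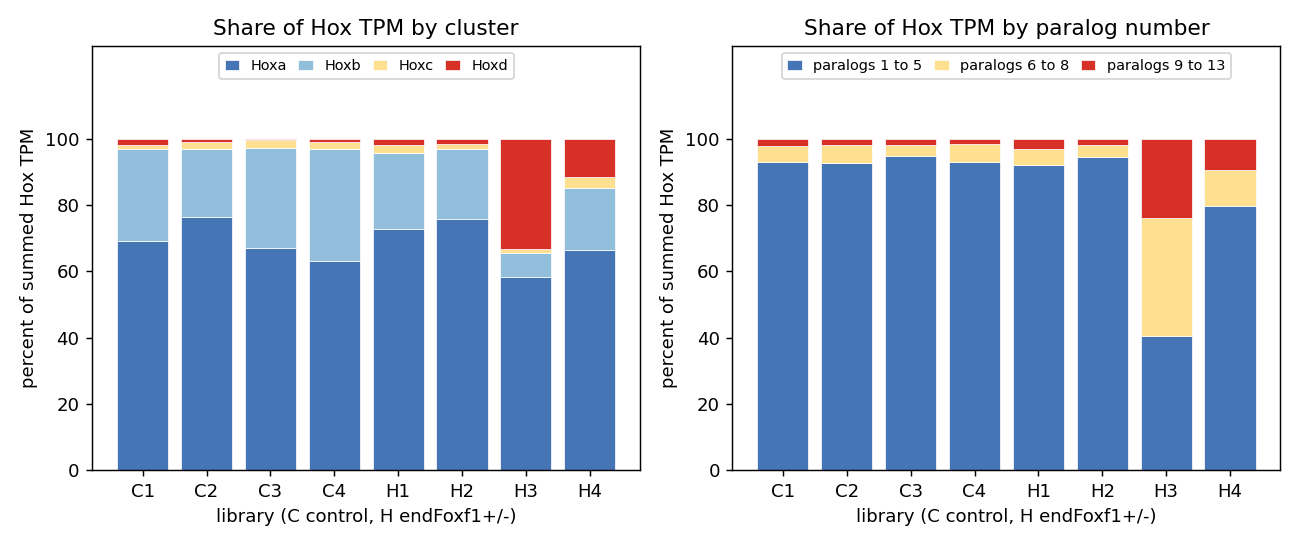
Percent of the summed Hox TPM held by each cluster (left) and by paralog numbers 1 to 5, 6 to 8 and 9 to 13 (right), with 1 bar per library. Hoxd genes hold 33.3% in H3 and 11.6% in H4, and at most 2.03% in the other libraries.

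Markers of other cell types differed between the libraries too. The summed TPM of 12 fibroblast and pericyte markers was 104 to 183 in the control libraries and 243, 169, 1350 and 320 in H1 to H4. In H3, 5 of the 12 were above and 4 below every control library. Among the former were Col3a1 at 556 TPM against 15.6 to 43.4, Dcn at 533 against 7.64 to 22.7 and Lum at 183 against 2.45 to 7.10, and among the latter Tagln at 3.73 against 27.9 to 35.4 and the pericyte gene Rgs5 at 0.602 against 10.7 to 18.9. Several of these genes were outside the control range in H1 and H2 too: Col3a1 was at 74.4 and 44.4 TPM, Dcn at 47.2 and 36.6, Lum at 21.4 and 15.3 and Rgs5 at 3.71 and 3.73. Groups did not overlap for 4 of the 12 (2.31% of all genes were lower and 2.73% higher in this way). None of the 12 was at 0 in any library. Myeloid markers, of which Lyz2 had the highest level, summed to 2629, 1882, 8914 and 4699 TPM in H1 to H4 against 1465 to 5126 in the control libraries, and 12 of 12 were above every control library in H3. C1qa (23.2, 22.1, 171 and 8.04 TPM in H1 to H4 against at most 5.35) and Cd68 (60.9, 106, 522 and 89.8 against at most 57.5) were above the control libraries in all 4, as were 2.73% of all genes. Lymphocyte markers summed to 27.3, 32.7, 90.4 and 14.1 TPM in H1 to H4, against 19.9 to 22.2. Epithelial markers, summing to 7175 to 32994 TPM in the control libraries, were at 11076, 2708, 1652 and 27319 in H1 to H4, mesothelial markers at 8.31 in H3 and 37.9 in H4 against 6.67 to 31.0, and the erythroid and platelet sum was 668, 647, 414 and 995 in H1 to H4 against 967 to 1993, low in H1 and H2 as well as in H3. Their part in the Hox profile of these libraries, H3 and H4 among them, was not tested.

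**Figure D4:**
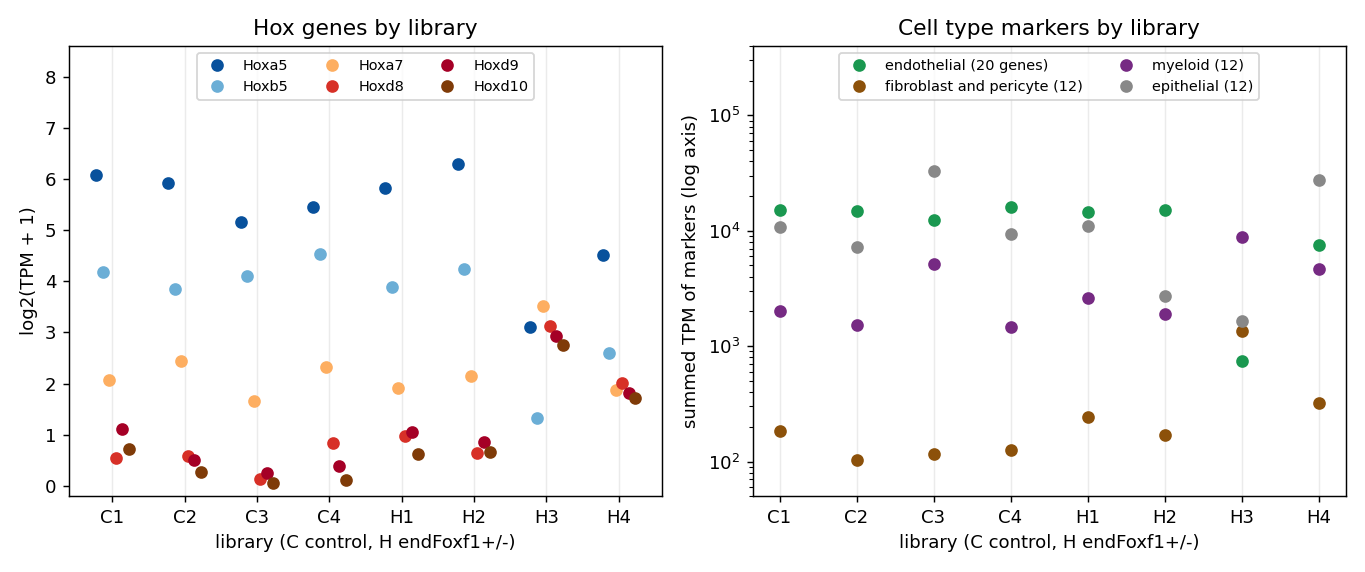
Left, log2(TPM + 1) of 6 Hox genes in each library, and right, summed TPM of endothelial, fibroblast and pericyte, myeloid and epithelial markers on a log axis. Hoxa5 and Hoxb5 sit lowest in H3, where endothelial markers are lowest and fibroblast and myeloid markers highest, and Hoxd8, Hoxd9 and Hoxd10 sit highest there.

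Hox proteins bind DNA together with TALE homeodomain cofactors of the Pbx, Meis and Pknox families. Of 9 cofactor genes 8 were tested, 6 lower and 2 higher with a median log2 difference of -0.24 (all genes, -0.17), and 0 had an unadjusted p under 0.05 in limma (2.77% of all genes lower and 2.82% higher), which is near the share over all genes. Meis1 was at 54.7, 83.6, 73.5 and 82.8 TPM in C1 to C4 and at 69.5, 88.3, 7.66 and 37.4 in H1 to H4. Meis2 was at 63.2, 70.9, 61.1 and 50.3 TPM in C1 to C4 and at 63.8, 89.6, 14.2 and 72.5 in H1 to H4. Both were lowest in H3, and Meis1, like the anterior Hox genes, was below the control range in H4 too.

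Polycomb proteins keep Hox clusters silent and trithorax proteins keep them active. Of 17 polycomb genes 13 were lower and 4 higher (median -0.15), and 0 had an unadjusted p under 0.05 (2.77% of all genes lower and 2.82% higher), a count near the share over all genes. The highest were Phc2, Ezh1 and Eed, whose control TPM ranged from 48.5 to 83.8, 49.0 to 72.9 and 41.99 to 66.1. Of 10 trithorax genes, with Psip1, Kmt2a and Dpy30 the highest, 7 were lower and 3 higher (median -0.12). One, Ash2l, a core subunit of histone methyltransferase complexes, was higher with no overlap between the groups (2.73% of all genes): 23.2, 24.8, 19.0 and 21.5 TPM in C1 to C4 and 29.5, 34.2, 37.2 and 34.8 in H1 to H4. Its log2 difference was 0.60 ± 0.20 (SE, limma, adjusted p = 0.790), and 0.55 without H3.

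Retinoic acid turns on anterior Hox genes in the embryo. Of 15 genes of its synthesis, breakdown and reception 10 were tested, 8 lower and 2 higher with a median of -0.32 (all genes, -0.17), and 3 lower and 1 higher at an unadjusted p under 0.05 (2.77% and 2.82% of all genes). Cyp26b1, which breaks retinoic acid down, was at 31.2, 113, 12.1 and 6.88 TPM in C1 to C4 and at 1.16, 6.47, 0.418 and 3.51 in H1 to H4. The groups did not overlap (2.31% of all genes were lower in this way), although C4 and H2 lay close together. The log2 difference was -2.96 ± 0.82 (limma, adjusted p = 0.790), and -2.57 without H3. Rdh10, which makes retinaldehyde from retinol, was at 6.70, 4.06, 6.26 and 5.37 TPM in C1 to C4 and at 8.47, 7.02, 20.1 and 11.4 in H1 to H4. Again the groups did not overlap (2.73% of all genes were higher in this way), with a log2 difference of 0.86 ± 0.34 (limma, adjusted p = 0.790), and 0.59 without H3. The synthesizing enzyme Aldh1a1 (-0.96) and the receptor gene Rarb (-0.79) had an unadjusted p of 0.0410 and 0.0406 and overlapping groups. Rara, at 37.7 to 60.6 TPM in the control libraries, and Rarg, at 32.4 to 55.2, were the highest receptor genes and were lowest in H3.

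**Figure D5:**
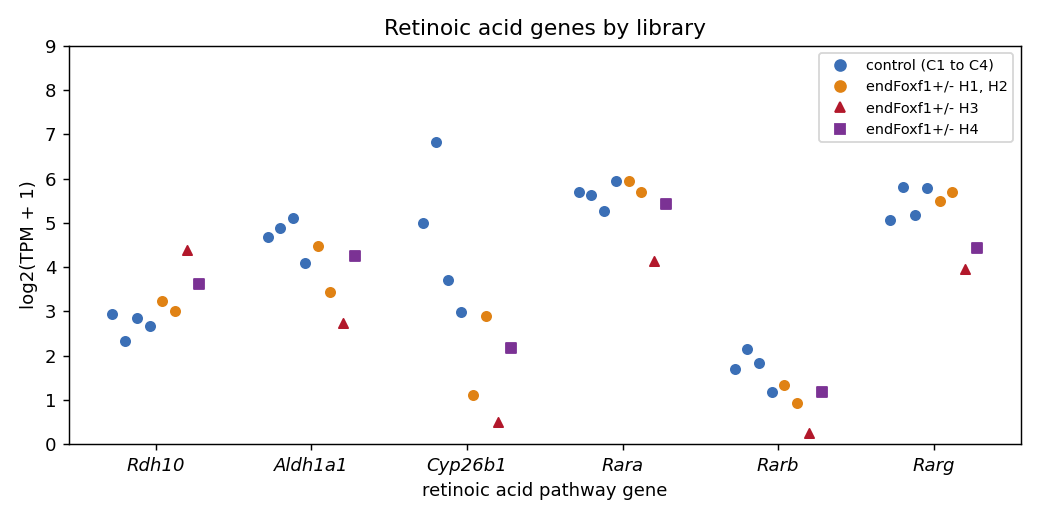
Level of 6 retinoic acid genes, as log2(TPM + 1), with 1 point per library (circles in blue for control and in orange for H1 and H2, triangle for H3, square for H4). Every endFoxf1+/- library lies below the control libraries for Cyp26b1 and above them for Rdh10, and the groups overlap for the other 4 genes.

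Of 7 further regulators of Hox genes, Cdx2 and Cdx4 were listed at 0 in all libraries, and the 3 tested had no unadjusted p under 0.05 (2 lower, 1 higher). Of 12 endothelial genes described as Hox targets, 9 were lower and 3 higher (median -0.54), and Plaur, Kdr and Efna1 were the highest in control cells. Mmp14, a membrane-bound matrix protease, was at 19.2, 16.2, 14.7 and 19.2 TPM in C1 to C4 and at 30.7, 28.3, 84.1 and 42.1 in H1 to H4. Thbs2, a secreted inhibitor of angiogenesis, was at 2.06, 0.805, 0.905 and 1.75 TPM in C1 to C4 and at 5.10, 4.12, 56.5 and 13.8 in H1 to H4. Both were without overlap (2.73% of all genes were higher in this way; log2 differences of 1.24 ± 0.34 and 2.46 ± 0.69, limma, adjusted p = 0.790), with log2 differences of 0.91 and 1.74 without H3. Both were highest in H3 and next in H4, as were Col3a1, Dcn and Lum. Of 19 antisense and other noncoding RNAs of the Hox clusters that were looked up, 0 had values under the symbols tried, so they could not be analysed.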

How the data were processed

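RNA-seq of CD45-CD31+ cells from LLC tumors was analysed in 4 control and 4 endFoxf1+/- libraries, numbered in accession order within each group (control C1 to C4, endFoxf1+/- H1 to H4), with groups taken from the genotype labels. The authors deposited TPM per gene symbol, normalized for transcript length, with a sum of 1000000 in each of the 8 libraries. The submitters' processing notes name TopHat, Cufflinks, Subread and DESeq2 and the GRCm38 (mm10) build; which tool made the TPM is not given in the sources used here. Read numbers cannot be had from TPM, so depth is unknown and no counting error was given.

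Genes entered the test if 4 or more libraries had a TPM of 1 or above, which left 14964. They were fitted on log2(TPM + 1) with limma 3.58.1 in R 4.3.3 (lmFit, eBayes with a trend) and Benjamini-Hochberg adjustment over all of them, at a threshold of 0.05. Single genes also had a two-sided exact permutation test over all 70 assignments of libraries. DESeq2 was not run, since it needs counts. Scripts were tested on simulated data. Values in every library are given for Hox genes with a mean control TPM of at least 1, with groups that did not overlap or with an unadjusted p under 0.05; genes of other lists were named if they met either of the last criteria or were among the 3 highest of their list in control cells. Exceptions are named as such. A few genes and sequences that these rules select are not reported here. Members and lists were chosen with earlier results of these data known. Alternatives were other pseudocounts, filters and scalings, no trend, array weights, libraries left out, and levels relative to endothelial markers. Positions and homeoboxes were read from GENCODE vM21.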

Additional observations from a re-analysis of the deposited data

Results flagged for a closer look

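Of 36 groups of 4 libraries examined (the Hox genes named with their values, sums and shares), 1 had a library far from the other 3. The share of paralog groups 1 to 5 in the summed Hox TPM was 94.7% in control library C3, and 92.7% to 93.0% in the other control libraries. Its gap to the nearest library was 0.885 of the range of the group. Chance alone gives about 1 such library in 20 groups.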

How the results depend on the processing

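No Hox gene had an adjusted p under 0.05 in limma under any alternative run. Over all genes the count of such genes, 0 in the main comparison, was 148 with array weights (which gave H3 a weight of 0.0643 and H4 of 0.178), 3 without H3 and H4, and 0 to 1 with each library left out. The count of Hox genes at an unadjusted p under 0.05, 1 in the main comparison, was 0 with a pseudocount of 5, 0 with a minimum TPM of 5, 0 without H3 and H4, still 1 but Hoxb3 in place of Hoxd9 with quantile normalization, 2 with median ratio scaling (Hoxb3 and Hoxb5, without Hoxd9), 3 with no filter (Hoxa10, Hoxd9 and Hoxd10), and 0 to 3 with each library left out: 0 without C2, C3, C4, H3 or H4, and 3 without H1 or H2. Median ratio scaling moved the median of all genes from -0.17 to -0.01, and of the 10 expressed Hox genes from -0.52 to -0.37.

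Log2 differences changed sign for Hoxa2 with quantile normalization (0.019), median ratio scaling (0.053), array weights (0.31), without H3 (0.10), without H4 (0.027) and without both (0.44). With array weights they did so for Hoxa4 (0.18), Hoxa5 (0.24), Hoxa7 (-0.20), Hoxb2 (0.14), Hoxb4 (0.063) and Hoxc9 (0.13). Without H3 and H4 they did for Hoxa3 (0.16), Hoxa4 (0.22), Hoxa5 (0.41), Hoxa7 (-0.093), Hoxb2 (0.17), Hoxb4 (0.11) and Hoxc9 (0.17). With each library left out, Hoxa7 ranged from -0.15 (without H3) to 0.40 (without H4). Relative to the endothelial markers, in settings added after seeing the data, they did without H3 for Hoxa3 (-0.038), Hoxb3 (-0.23), Hoxb4 (-0.16) and Hoxb5 (-0.36), and without H3 and H4 for Hoxa7 (-0.15), Hoxb3 (-0.33) and Hoxb5 (-0.16). This scaling adds 1.20 to every gene with all libraries, 0.23 without H3 and -0.058 without both, so these turns restate the marker levels of H3 and H4. The cause was not tested, beyond the libraries left out. Of the other results, the number of expressed Hox genes stayed within 1.5 times of 10. With each library left out, the mean summed TPM of endFoxf1+/- libraries ran from 91.5 to 126.3 and their mean Hoxd share from 5.08% to 15.6%. In control libraries these ran from 122.4 to 140.2 and from 0.822% to 1.27%. The mean Hoxa and Hoxb shares of endFoxf1+/- libraries ran from 65.8% to 71.6% and from 15.7% to 20.9%.

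No paired analysis was possible because the labels give no replicate numbers: those used here follow accession order, and nothing ties equal numbers to a litter or batch. Precision is limited by 4 libraries per group, of which H3 and H4 carry less endothelial RNA, and by an unknown depth, so that no detection limit can be set for the genes listed at 0.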
